A study of Caenorhabditis elegans with 12 samples.

Results

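Sperm genes other than the major sperm proteins were followed in whole L4 larvae of the nematode Caenorhabditis elegans. The members were chosen by gene name alone: every gene called spe, nspd, nsph, msrp or sss with a number, and the genes gsp-3 and gsp-4. Of the 17118 genes that had a probe set with 1 gene symbol, 51 met this rule. They comprised 29 spe genes, 6 nspd, 5 nsph, 7 msrp, 2 sss and both gsp genes. Where a gene had several probe sets, the one with the highest mean over all arrays stood for it, which applied to spe-55.

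The study measured transcripts on 12 one-colour arrays in 4 groups of 3 arrays. The groups were MT KO larvae with 30 µM Cd, MT KO larvae without Cd, wild-type larvae with 30 µM Cd and wild-type larvae without Cd. MT KO is the genotype mtl-1,mtl-2(zs1), a strain without both metallothioneins, the small proteins that bind Cd, and wild type is the strain N2 (Bristol). All groups came from parents kept at 20 °C on plates seeded with E. coli OP50, and synchronised L1 larvae obtained by bleaching were grown to the L4 stage. The labels do not say whether the 3 arrays of a group came from separate cultures, so the p-values reflect how far these arrays spread, and that spread may be technical only. Whole animals were extracted, so fewer cells of a type and less RNA per cell cannot be told apart.

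In C. elegans hermaphrodites, the germ line makes sperm during late larval life and then switches to oocytes. The spermatids lack most protein synthesis, so the proteins of the mature sperm are made earlier, in the spermatocytes. Sperm crawl on a cytoskeleton of major sperm protein, which is packed in the spermatocyte into fibrous bodies attached to membranous organelles, and they become motile on activation. The spe (spermatogenesis defective) genes were named for mutants with defective sperm, while the nspd and nsph genes encode nematode-specific peptides and the sss genes a sperm-specific family.

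Values are log2 GCRMA values, an array signal corrected for background and normalised between arrays, in which 1 unit is a doubling. The median of all values was 4.03, and a value below it may be background. By this measure 29 members had a mean over the 12 arrays above the median and 22 had not, and 18 lay below it in every group. Differences were tested with limma over all 22548 probe sets that were no controls, and a member was called changed at a Benjamini-Hochberg adjusted p under 0.05. The arrays of a group correlated at r between 0.991 and 0.997. As a check of the deletion, mtl-1 averaged 4.02 ± 0.22 in MT KO larvae with Cd and 9.85 ± 0.38 in wild-type larvae with Cd (SD, n = 3 each). The 3 probe sets of mtl-2 differed between MT KO and wild type by -7.51, -7.81 and -4.40 log2 units with Cd and by -7.81, -7.60 and -4.80 without Cd.

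Arrays within the groups without Cd stood apart in these genes, in both directions. In MT KO larvae without Cd, replicate 3 lay above its group mean in 42 of the 51 members, by a median of 0.18. In wild-type larvae without Cd, replicate 1 lay above its group mean in 44 of the 51, by a median of 0.16. On the low side, MT KO no-Cd replicate 1 lay above its group mean in only 11 members, with a median deviation of -0.14. Wild-type no-Cd replicate 3 did so in only 6, with a median deviation of -0.13. Wild-type no-Cd replicate 1 also had the largest difference between 3′ and 5′ control signals, a sign of RNA degradation, at 2.81, against a group mean of 1.98 ± 0.78 (SD, n = 3). The counts of members called are therefore also given without each of the high arrays, MT KO no-Cd replicate 3 and wild-type no-Cd replicate 1. The range over leaving out each array in turn, the low ones included, is given at the end.

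Most of the sperm genes fell with Cd in MT KO larvae. Of the 51 members, 35 fell, 1 rose and 15 were not called, against backgrounds of 11% of all probe sets lower and 11.5% higher. The median difference of the members, Cd minus no Cd, was -1.16, against 0.02 over all probe sets, and 29 members fell by 1 log2 unit or more. For 12 members, among them spe-11, spe-26, spe-46, spe-55, sss-1, nsph-3.2, msrp-1, msrp-5 and msrp-6, the MT KO mean lay below the median of all values with Cd and above it without Cd. The sizes of their differences, and any ranking by size, therefore depend on the background of the array. All 3 arrays with Cd lay below all 3 arrays without Cd for 39 members, where 15.9% of all probe sets did so, and above them for 2 members, where 27.3% did so. Without MT KO no-Cd replicate 3 there were 34 lower and 0 higher, and without wild-type no-Cd replicate 1 there were 34 lower and 1 higher.

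**Figure D1:**
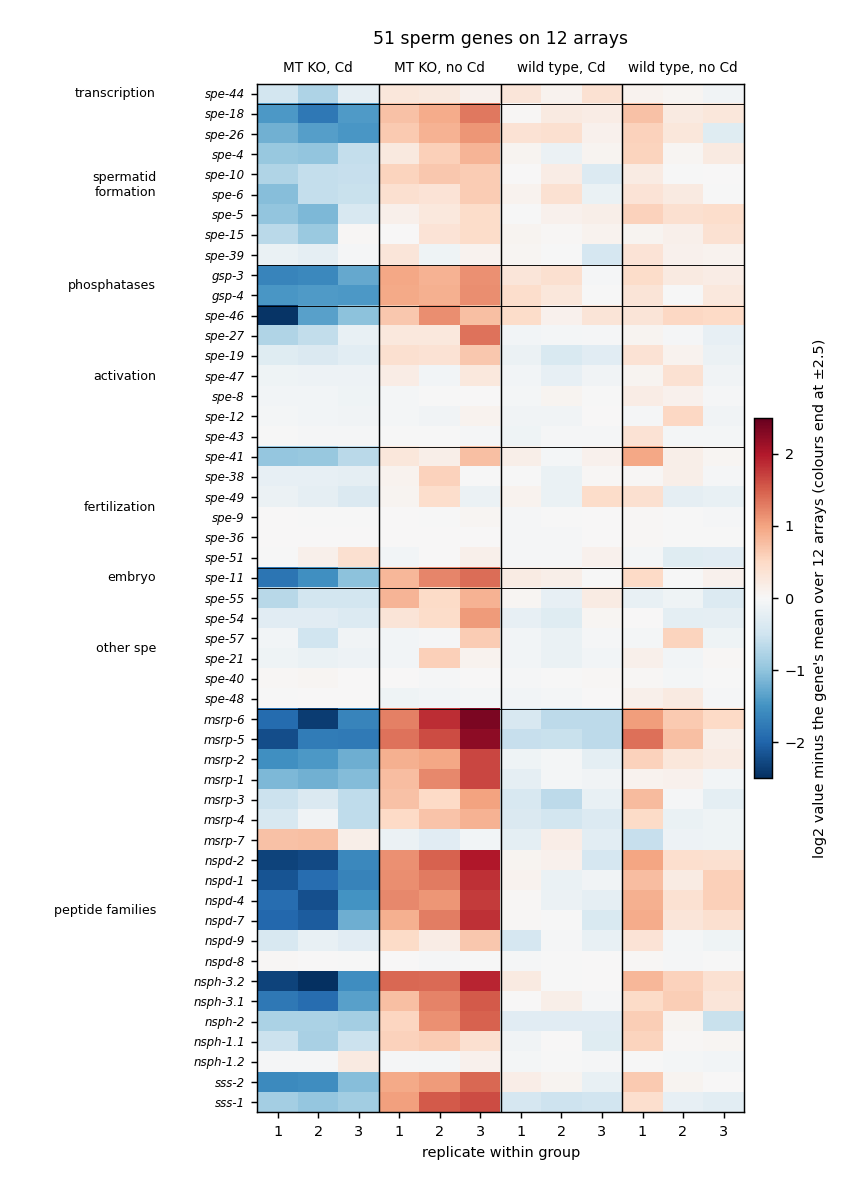
Levels of the 51 members on the 12 arrays, each drawn as the log2 GCRMA value minus the gene's mean over all arrays, with genes in rows by role and arrays in columns by group. The columns of MT KO larvae with Cd are the lowest for most members, and 40 of the 51 had their lowest group mean there. The share of all probe sets that did so was not counted.

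The sperm phosphatases gsp-3 and gsp-4 encode catalytic subunits of protein phosphatase 1 that are needed for sperm meiosis and motility. For gsp-4 the 3 arrays read 4.77, 4.82 and 4.79 in MT KO larvae with Cd, against 7.18, 7.12 and 7.39 in MT KO larvae without Cd. In wild type, gsp-4 read 6.67, 6.52 and 6.22 with Cd, against 6.56, 6.22 and 6.49 without Cd. The MT KO groups did not overlap, and the wild-type groups did. The fall in MT KO was -2.44 ± 0.12 (SE of the limma fit), 5.41-fold, with a limma adjusted p of 2.65e-06, and the wild-type difference was 0.05, with a 95% interval from -0.23 to 0.33. Its paralog gsp-3 read 4.92, 4.97 and 5.30 in MT KO larvae with Cd, against 7.56, 7.44 and 7.72 without Cd. In wild type it read 6.88, 6.99 and 6.55 with Cd, against 7.04, 6.81 and 6.77 without Cd. Again only the MT KO groups were separate, by -2.51 ± 0.14 (limma adjusted p = 4.05e-06). The 2 genes are near-identical and their probe sets are of a kind that may cross-hybridise, so the signals of gsp-3 and gsp-4 may not be independent.

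The gene spe-44 encodes a regulator of transcription in spermatocytes, upstream of many sperm genes. Its arrays read 6.01, 5.70 and 6.26 in MT KO larvae with Cd, against 6.76, 6.71 and 6.58 in MT KO larvae without Cd. In wild type spe-44 read 6.78, 6.57 and 6.85 with Cd, against 6.57, 6.51 and 6.38 without Cd. The 3 arrays of MT KO larvae with Cd were the lowest of the 12. The MT KO difference was -0.69 ± 0.13 (limma adjusted p = 0.00376), and the wild-type difference was 0.24 (limma adjusted p = 0.326).

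Of the 8 genes for spermatid formation and the membranous organelles, 7 fell in MT KO larvae with Cd, with a median of -1.23 over the 8. The largest fall was that of spe-18, whose product is needed to assemble major sperm protein into fibrous bodies. It read 5.10, 4.76 and 5.13 in MT KO larvae with Cd, against 7.26, 7.47 and 7.85 in MT KO larvae without Cd. In wild type spe-18 read 6.56, 6.76 and 6.73 with Cd, against 7.27, 6.76 and 6.82 without Cd. The MT KO arrays were separate by -2.53 ± 0.18 (limma adjusted p = 1.37e-05), and the wild-type difference of -0.27 had an interval from -0.67 to 0.13. The kelch-repeat gene spe-26 fell by 2.22 (limma adjusted p = 5.67e-05). The presenilin-type gene spe-4 fell by 1.41, the palmitoyltransferase gene spe-10 by 1.26, the casein kinase 1-type gene spe-6 by 1.20, the vacuolar ATPase subunit gene spe-5 by 1.12 and the myosin gene spe-15 by 0.79. The call of spe-15 had a limma adjusted p of 0.0269, and it was lost without MT KO Cd replicate 1 (0.0881) or 2 (0.0857) or MT KO no-Cd replicate 2 (0.0842) or 3 (0.0918). The member of this set that was not called was spe-39, a vesicle trafficking gene used in many tissues. It read 5.91, 5.85 and 6.03 in MT KO larvae with Cd, against 6.36, 5.95 and 6.15 without Cd, a difference of -0.22 with an interval from -0.55 to 0.10.

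Of the 7 genes for sperm activation, the step that turns round spermatids into crawling sperm, 3 fell in MT KO larvae with Cd and the median was -0.24. These were spe-46 (-2.47, limma adjusted p = 0.000356), spe-27 (-1.15, limma adjusted p = 0.0128) and spe-19 (-0.79, limma adjusted p = 0.00142). The arrays of spe-46 spread widely, at 2.56, 3.66 and 3.99 in MT KO larvae with Cd, against 5.68, 6.18 and 5.76 without Cd, but did not overlap. The tyrosine kinase gene spe-8 and its partner in the pathway spe-12 differed by -0.07 and -0.05, and neither was called. The activation gene spe-43 and spe-47 (-0.24), which encodes a protein with a major sperm protein domain, were not called either. The means of spe-12, spe-19, spe-27, spe-43 and spe-47 lay below the median of all values in every group. Their signals may be background, so a missing call does not show a missing response.

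Among the 6 genes for fertilization, 2 fell and the median was -0.19. The calcium-permeable TRPC channel gene spe-41 averaged 3.69 ± 0.17 in MT KO larvae with Cd and 4.94 ± 0.31 without Cd (SD, n = 3 each), a difference of -1.26 (limma adjusted p = 0.00381). The membrane protein gene spe-38 fell by 0.42 (limma adjusted p = 0.0441). That call was lost, at adjusted p between 0.0526 and 0.102, when any array other than the 3 of MT KO larvae without Cd was left out. The EGF-repeat gene spe-9 averaged 2.38 ± 0.01 in MT KO larvae with Cd and 2.40 ± 0.03 without Cd, below the median of all values on every array, so this signal may be background. The fertilization genes spe-36 (0.01) and spe-49 (-0.36) were not called either. The means of spe-36, spe-38 and spe-49 also lay below the median of all values in every group, so these signals may be background. The highest fertilization difference was that of spe-51, which read 2.81, 2.93 and 3.22 in MT KO larvae with Cd, against 2.75, 2.82 and 2.95 without Cd. In wild type it read 2.78, 2.78 and 2.92 with Cd, against 2.76, 2.51 and 2.53 without Cd. These arrays were low throughout, and the MT KO difference of 0.15 was not called (limma adjusted p = 0.399).

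The product of spe-11 is carried by the sperm into the egg, where it is needed for egg activation and the eggshell. It read 3.43, 3.73 and 4.24 in MT KO larvae with Cd, against 6.08, 6.48 and 6.65 in MT KO larvae without Cd. In wild type spe-11 read 5.47, 5.41 and 5.24 with Cd, against 5.76, 5.25 and 5.37 without Cd. The MT KO groups were separate (-2.61 ± 0.22, limma adjusted p = 3.51e-05), at a level with Cd that averaged 3.80 and may be background, while the wild-type groups overlapped (-0.09, interval -0.58 to 0.41).

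Of the 6 spe genes without an assigned role here, spe-54 and spe-55 fell, the first by 0.92 (limma adjusted p = 0.00357). Those not called were spe-21 (-0.34), spe-40 (0.04), spe-48 and spe-57 (-0.40). The arrays of spe-55 read 2.82, 3.05 and 3.05 in MT KO larvae with Cd, against 4.36, 3.99 and 4.38 without Cd, a difference of -1.27 ± 0.13 (limma adjusted p = 0.000124). In wild type it read 3.56, 3.29 and 3.70 with Cd, against 3.32, 3.39 and 3.17 without Cd. Of all 12 arrays, those of MT KO larvae without Cd were the highest for spe-55. Its other probe set was not called (-0.53, limma adjusted p = 0.0951). The gene spe-48 moved little, at 6.25, 6.27 and 6.26 in MT KO larvae with Cd, against 6.15, 6.19 and 6.22 without Cd, and at 6.20, 6.22 and 6.28 in wild-type larvae with Cd, against 6.39, 6.50 and 6.23 without Cd. Its MT KO difference of 0.07 had an interval from -0.06 to 0.21, at a level well above the median of all values.

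Of the 20 members of the small sperm peptide families, 17 fell and 1 rose in MT KO larvae with Cd, with a median of -2.45. The nspd family (nematode-specific peptides, group D) had a median of -3.15 with 5 of 6 lower, and the nsph family (group H) -1.86 with 4 of 5 lower. The msrp family had a median of -2.35 with 6 of 7 lower, and both sss genes fell.

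The nsph gene with the most negative measured difference, nsph-3.2, read 3.59, 3.03 and 4.36 in MT KO larvae with Cd, against 7.36, 7.33 and 7.82 in MT KO larvae without Cd. In wild type nsph-3.2 read 6.14, 5.90 and 5.93 with Cd, against 6.75, 6.50 and 6.29 without Cd. Both strains had separate groups, but the MT KO difference was -3.84 ± 0.29 (limma adjusted p = 1.96e-05) and the wild-type difference -0.52 (limma adjusted p = 0.351). Its MT KO level with Cd averaged 3.66, below the median of all values, so the size of this fall is uncertain. A sister gene, nsph-3.1, read 4.96, 4.84 and 5.38 in MT KO larvae with Cd, against 7.50, 7.97 and 8.27 without Cd. In wild type nsph-3.1 read 6.75, 6.87 and 6.70 with Cd, against 7.22, 7.36 and 7.04 without Cd. The fall of nsph-3.1 in MT KO was -2.85 ± 0.20 (limma adjusted p = 1.15e-05). Of the other nsph genes, nsph-2 fell by 1.86 and nsph-1.1 by 1.16, while nsph-1.2 was not called (0.05, interval -0.11 to 0.21). The mean of nsph-2 lay below the median of all values in every group, so its signal may be background.

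For nspd-2 the arrays read 5.11, 5.18 and 5.82 in MT KO larvae with Cd, against 8.58, 8.90 and 9.43 in MT KO larvae without Cd. In wild type nspd-2 read 7.50, 7.54 and 7.003 with Cd, against 8.43, 7.85 and 7.84 without Cd. The MT KO arrays with Cd were the lowest 3 of the 12 and those without Cd the highest 3. The MT KO difference was -3.60 ± 0.28 (12.1-fold, limma adjusted p = 2.25e-05). For nspd-1 the MT KO arrays read 5.38, 5.63 and 5.86 with Cd, against 8.69, 8.82 and 9.36 without Cd. In wild type nspd-1 read 7.62, 7.37 and 7.44 with Cd, against 8.30, 7.73 and 8.12 without Cd. The order of the groups was the same as for nspd-2, and its fall in MT KO was 10.1-fold (limma adjusted p = 6.1e-06). These nspd probe sets may cross-hybridise within the family, so the members are not independent measurements. The differences of nspd-4, nspd-7 and nspd-9 were -3.21, -3.08 and -0.74, and all 3 passed the test. The nspd member that was not called, nspd-8, averaged 2.69 ± 0.02 in MT KO larvae with Cd and 2.68 ± 0.02 without Cd. The means of nspd-8 and nspd-9 lay below the median of all values in every group, so these signals may be background.

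Most of the msrp genes fell with Cd in MT KO. For msrp-6 the arrays read 2.47, 2.02 and 2.73 in MT KO larvae with Cd, against 5.65, 6.24 and 6.73 in MT KO larvae without Cd. In wild type msrp-6 read 3.99, 3.72 and 3.74 with Cd, against 5.43, 5.04 and 4.88 without Cd. The groups of both strains were separate, and the MT KO difference was -3.80 ± 0.27 (limma adjusted p = 1.51e-05). Its neighbour on chromosome II, msrp-5, read 2.93, 3.40 and 3.38 in MT KO larvae with Cd, against 6.51, 6.79 and 7.39 without Cd, a difference of -3.66 ± 0.31 (limma adjusted p = 3.33e-05). The level of both genes with Cd in MT KO lay below the median of all values, so the size of these falls depends on the background of the array. The genes msrp-2, msrp-1, msrp-3 and msrp-4 fell by 2.58, 2.35, 1.26 and 1.07. The only member that rose was msrp-7, which read 4.29, 4.31 and 3.69 in MT KO larvae with Cd, against 3.42, 3.28 and 3.50 without Cd. In wild type msrp-7 read 3.31, 3.71 and 3.30 with Cd, against 2.97, 3.43 and 3.46 without Cd. Its MT KO difference was 0.70 ± 0.20 (limma adjusted p = 0.0281), and the call was lost when any of 5 arrays was left out, with adjusted p between 0.0523 without MT KO no-Cd replicate 3 and 0.0979 without MT KO Cd replicate 2. The other 3 were MT KO Cd replicate 1 (0.0963) and MT KO no-Cd replicates 1 (0.0638) and 2 (0.0948). The call was also lost with the difference between 3′ and 5′ control signals as a covariate (0.0871) and with only the 2 groups compared (0.0592). The mean of msrp-7 was 4.10 in MT KO larvae with Cd and lay below the median of all values in every other group, so its signal may be background.

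The gene sss-1 read 3.18, 3.07 and 3.16 in MT KO larvae with Cd, against 5.06, 5.57 and 5.67 in MT KO larvae without Cd. In wild type sss-1 read 3.61, 3.53 and 3.55 with Cd, against 4.45, 3.84 and 3.77 without Cd. Both pairs of groups were separate, and the MT KO difference was -2.30 ± 0.19 (limma adjusted p = 3.26e-05). Its relative sss-2, annotated as a pseudogene in RefSeq, read 4.53, 4.57 and 5.05 in MT KO larvae with Cd, against 7.06, 7.18 and 7.55 without Cd. In wild type sss-2 read 6.29, 6.19 and 5.93 with Cd, against 6.78, 6.20 and 6.12 without Cd. The fall of sss-2 in MT KO was -2.55 ± 0.21 (limma adjusted p = 3.27e-05).

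**Figure D2:**
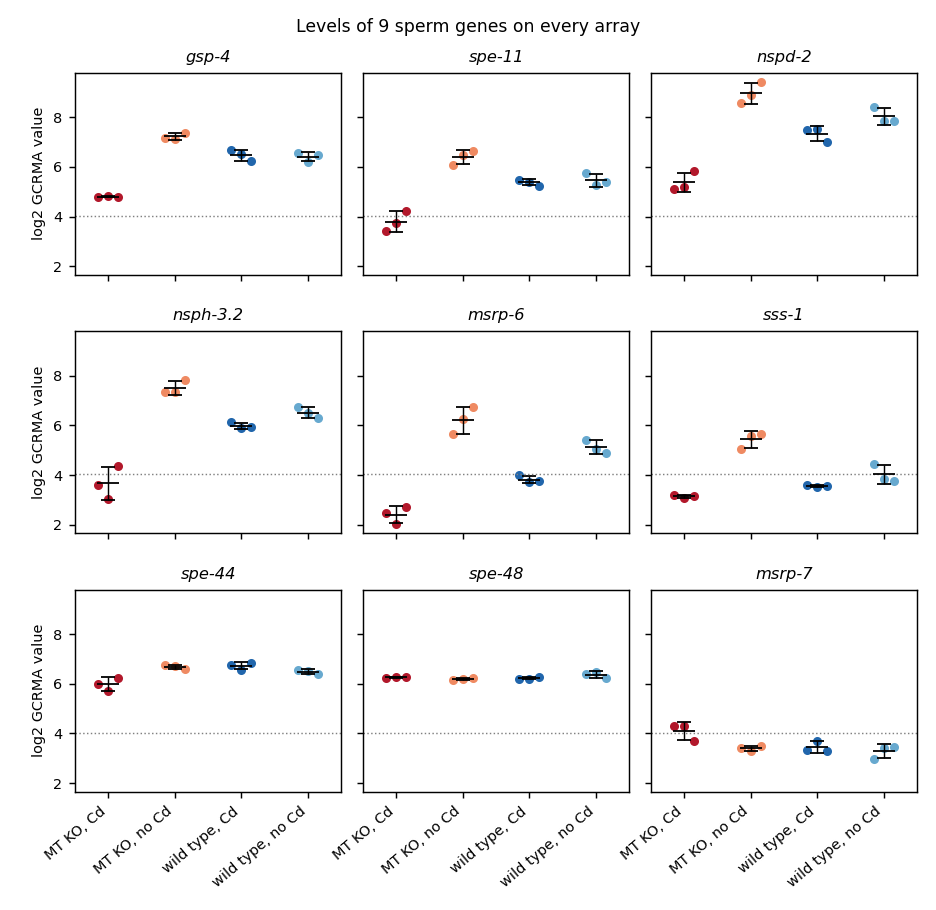
Log2 GCRMA values of 9 members on each array, with 1 point per array, bars at the group mean and 1 SD to each side, and a dotted line at the median of all values (4.03). For gsp-4, spe-11, nspd-2, nsph-3.2, msrp-6 and sss-1 the MT KO points with Cd lie far below those without Cd, for spe-44 the gap is smaller, spe-48 is nearly level, and msrp-7 is higher with Cd.

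In wild-type larvae 2 members fell with Cd, none rose and 49 were not called, against backgrounds of 5.5% of probe sets lower and 6.44% higher. The median difference was -0.16, against 0.00 over all probe sets. At an unadjusted limma p under 0.05 there were 14 lower and 0 higher. The share of all probe sets at this unadjusted threshold was not counted. Counts of members at it, here and below, therefore have no background beside them. The arrays with Cd lay wholly below those without Cd for 16 members, where 11.5% of all probe sets did so, and wholly above for 2, where 13.4% did so. The 2 members that fell were the neighbours msrp-5 and msrp-6. In wild type msrp-5 read 4.57, 4.60 and 4.50 with Cd, against 6.52, 5.91 and 5.29 without Cd, a difference of -1.35 ± 0.31 (limma adjusted p = 0.0196). The difference of msrp-6 was -1.30 ± 0.27 (limma adjusted p = 0.0137).

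These wild-type calls were fragile. With the 3′ minus 5′ signal of each array as a covariate none was left, at adjusted p of 0.231 for msrp-5 and 0.139 for msrp-6, and 3 members had an unadjusted limma p under 0.05. That of msrp-5 was also lost without wild-type Cd replicate 1 (0.0533), 2 (0.0542) or 3 (0.0623) or wild-type no-Cd replicate 2 (0.0578). The number of members called was 2 without wild-type no-Cd replicate 1 and 4 without MT KO no-Cd replicate 3.

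**Figure D3:**
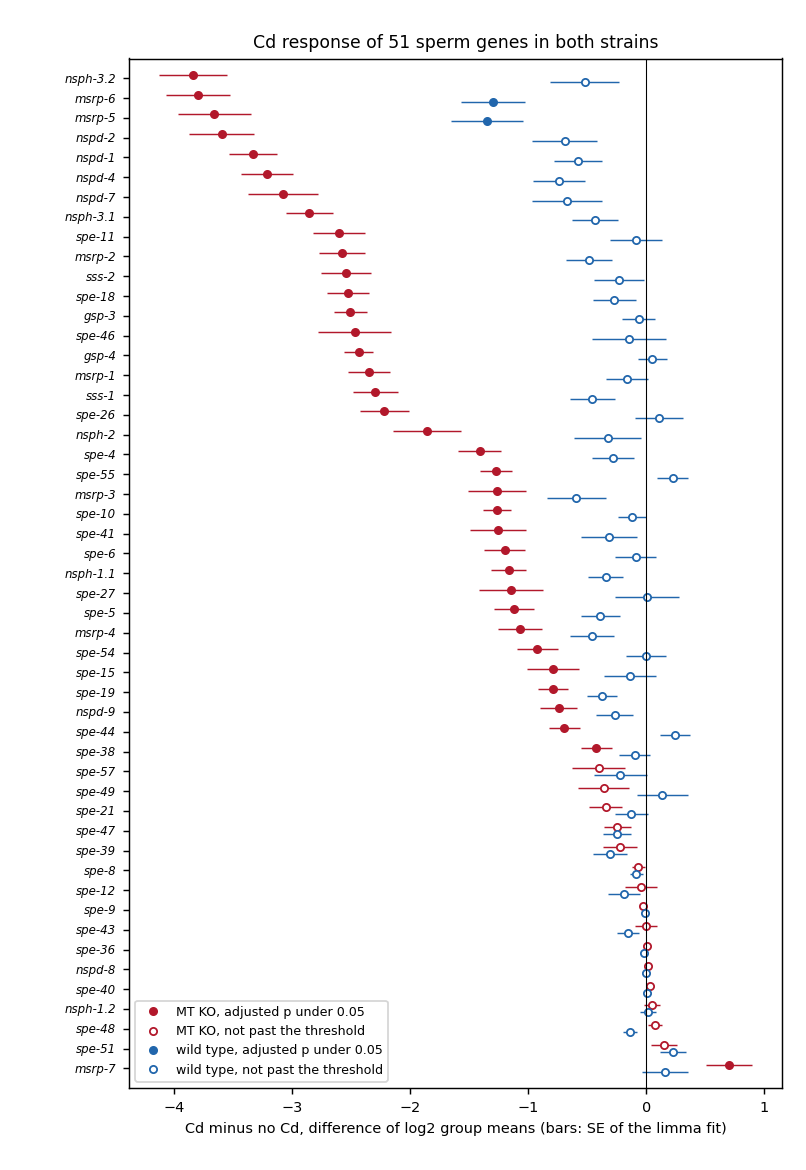
Cd response of each of the 51 members in MT KO (red) and in wild type (blue), as the difference of log2 group means with the SE of the limma fit, ordered by the MT KO value. Filled points passed an adjusted p under 0.05: 36 in MT KO, of which 1 is above 0, and 2 in wild type.

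The difference between the strains in the Cd response was tested directly, as the MT KO response minus the wild-type response. It was negative and called for 23 members, positive and called for none, and not called for 28, where 3.36% of probe sets were lower and 2.09% higher. At an unadjusted limma p under 0.05 there were 31 lower and 1 higher. The median of the members was -0.94, against 0.02 over all probe sets. Without MT KO no-Cd replicate 3 there were 22 and without wild-type no-Cd replicate 1 there were 26, all negative. The called members were 12 of the 20 small peptide genes, 5 of the 8 spermatid formation genes, both phosphatase genes, 1 of 7 activation genes, spe-11, spe-44 and 1 of the 6 other spe genes. Among the spermatid formation genes, the calls of spe-4 and spe-6 were each lost under 8 of the 20 alternatives described below that gave a value. Their limma adjusted p rose to at most 0.0822 and 0.0748. No fertilization gene was called. Of these, spe-9, spe-36, spe-38, spe-49 and spe-51 had means below the median of all values in every group. Their signals may be background, so the counts by role also depend on signal level.

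The difference was -3.32 ± 0.41 for nsph-3.2 (limma adjusted p = 0.00247), a size that rests on an MT KO level with Cd below the median of all values. It was -2.91 ± 0.39 for nspd-2 and -2.76 ± 0.29 for nspd-1. The phosphatase genes had the smallest adjusted p, at 0.00021 for gsp-4 (-2.49 ± 0.17) and 0.000503 for gsp-3 (-2.44 ± 0.20). The difference of spe-44 was -0.94 ± 0.18 (limma adjusted p = 0.0184), and its adjusted p was 0.0509 without MT KO no-Cd replicate 2 and 0.0519 without wild-type Cd replicate 1. For msrp-6 it was -2.50 ± 0.39 (limma adjusted p = 0.00593), although this gene had also fallen in wild type. The response of msrp-7 did not differ between the strains past the threshold (0.55, interval -0.07 to 1.17).

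With Cd, 24 members were lower in MT KO than in wild type, none was higher and 27 were not called, against backgrounds of 4.94% lower and 3.62% higher. The median difference was -0.52, against 0.02 over all probe sets. At an unadjusted limma p under 0.05, 26 were lower and 1 higher. The MT KO arrays lay wholly below the wild-type arrays for 30 members and wholly above for 0, where 11.5% and 14.3% of all probe sets did so. The smallest adjusted p belonged to gsp-4 (-1.68, limma adjusted p = 0.0002) and gsp-3 (-1.74, limma adjusted p = 0.00026). The gene nsph-3.2 differed by -2.33 (limma adjusted p = 0.00155), spe-46 by -1.90 (limma adjusted p = 0.00547) and spe-26 by -1.63 (limma adjusted p = 0.00161). The gene sss-1, which was low with Cd in both strains, was not called in this comparison (-0.43, limma adjusted p = 0.258). There were 24 without MT KO no-Cd replicate 3 and 25 without wild-type no-Cd replicate 1, and leaving out each array in turn gave between 17 and 25 members.

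Without Cd, the direction was the other way. Here 5 members were higher in MT KO than in wild type, none was lower and 46 were not called, against backgrounds of 0.94% higher and 0.705% lower. The median difference was 0.38, against -0.00 over all probe sets. At an unadjusted limma p under 0.05, 26 were higher and 1 lower, again without a share over all probe sets. The MT KO arrays lay wholly above the wild-type arrays for 22 members, where 8.43% of all probe sets did so, and wholly below for 1, where 7.42% did so. The 5 genes were sss-1, msrp-1, spe-55, gsp-4 and gsp-3.

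Among these 5, sss-1 differed by 1.41 ± 0.19 (limma adjusted p = 0.00954). The gene msrp-1 averaged 5.91 ± 0.45 in MT KO and 4.73 ± 0.10 in wild type (SD, n = 3 each), a difference of 1.18 ± 0.18 (limma adjusted p = 0.0153). The differences of spe-55 and gsp-4 were 0.95 ± 0.13 and 0.81 ± 0.12 (limma adjusted p = 0.0113 and 0.0153). The other probe set of spe-55 differed by 0.25 (limma adjusted p = 0.716), and the mean of its probe sets by 0.60 (limma adjusted p = 0.0654), so the call of spe-55 rests on 1 probe set. That of gsp-3 was 0.70 ± 0.14 (limma adjusted p = 0.0438), and was lost at adjusted p between 0.0504 and 0.124 when any of 9 arrays was left out, that is all but MT KO Cd replicate 3 and wild-type Cd replicates 2 and 3. The adjusted p of gsp-4 was 0.0504 without wild-type no-Cd replicate 2, and that of msrp-1 was 0.0557 without MT KO no-Cd replicate 2 and 0.0503 without wild-type no-Cd replicate 2. The count was 4 without MT KO no-Cd replicate 3 and 6 without wild-type no-Cd replicate 1. It ranged from 2 to 7 when each array was left out in turn.

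Read together as levels, the group means ran in 1 order for 30 of the 51 members. MT KO without Cd was highest, wild type without Cd next, then wild type with Cd, and MT KO with Cd lowest. The highest group mean was that of MT KO without Cd in 37 members. The shares of all probe sets with this order or this highest group were not counted. Only 5 members were called between the strains without Cd and 2 for Cd in wild type. None of these calls held under every alternative, so the order describes means and not tested steps. The median level of the 51 members was 3.45 ± 0.14 in MT KO larvae with Cd, 5.14 ± 0.20 in MT KO larvae without Cd, 4.43 ± 0.09 in wild-type larvae with Cd and 4.72 ± 0.14 in wild-type larvae without Cd (SD, n = 3 each). The members that moved little were mostly of low signal, and 15 of the 51 spanned less than 1 log2 unit over the 12 arrays.

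**Figure D4:**
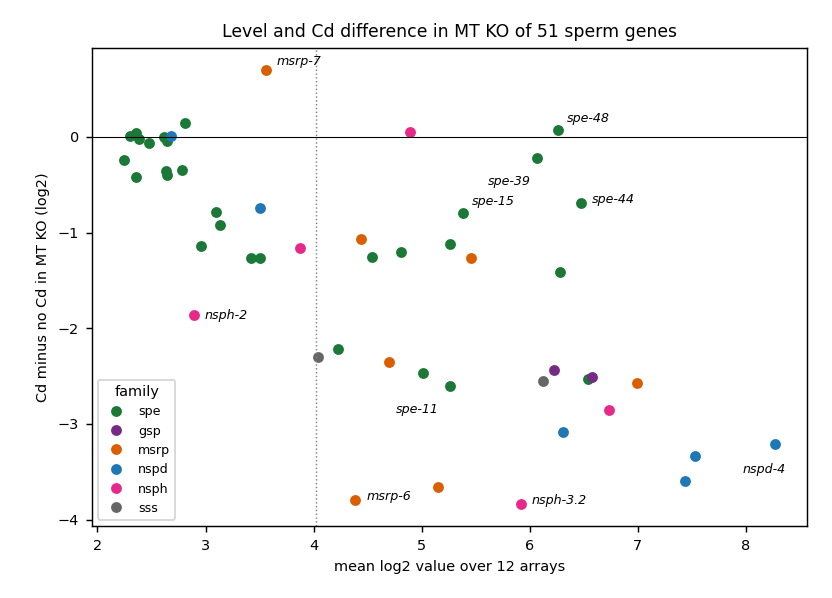
Cd minus no Cd in MT KO (log2 difference) against the mean log2 GCRMA value over the 12 arrays for the 51 members, with the median of all values (4.03) marked. Many members with a mean far below the median lie near a difference of 0, while spe-48, spe-39 and nsph-1.2 (unlabelled, at 0.05) show little difference at means above the median.

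Other sperm genes were examined beside the members. All 23 major sperm protein genes measured fell in MT KO larvae with Cd, with a median of -2.90, against -1.16 for the 51 members and -1.99 for 31 other sperm genes. The 29 members whose mean over the 12 arrays exceeded the median of all values had a median of -2.44, so the median of the members depends on which are counted. That mean includes the groups where a member is high, so members can pass through these groups. The other lists were not filtered alike, so -2.44 does not settle how the lists compare. The probe sets of the major sperm protein genes can share sequence, so the 23 are not independent measurements. Of the 31 other genes, 22 fell and 3 rose in MT KO with Cd, against backgrounds of 11% and 11.5%. In wild type, 1 of the 31 fell and 3 rose, with a median of -0.30, and 1 of the 23 major sperm protein genes fell, with a median of -0.42. There, 5.5% of all probe sets were lower and 6.44% higher. The difference in response between the strains was called lower for 18 and higher for 1 of the 31, and lower for all 23 major sperm protein genes. Of all probe sets, 3.36% were lower and 2.09% higher in that comparison.

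The sperm-specific gene ssp-35 read 3.66, 3.52 and 3.82 in MT KO larvae with Cd, against 6.88, 7.01 and 7.63 without Cd, a difference of -3.51 (limma adjusted p = 4.69e-06). The gene msd-4 fell by 3.64 (limma adjusted p = 1.89e-05). In the opposite direction, fog-1, which directs germ cells to the sperm fate, read 6.25, 6.63 and 6.50 in MT KO larvae with Cd, against 4.98, 5.09 and 5.20 without Cd, and rose by 1.37 (limma adjusted p = 1.18e-05). It rose by 0.45 in wild type (limma adjusted p = 0.014), and the responses differed by 0.93 (limma adjusted p = 0.00462). The zinc transporter gene zipt-7.1, which acts in sperm activation, rose by 1.70 in MT KO and by 1.80 in wild type (limma adjusted p = 1.63e-05 and 2.03e-05), and these responses did not differ past the threshold (-0.09, limma adjusted p = 0.866). The third gene that rose in MT KO was try-5 (0.36, limma adjusted p = 0.0106), named here after its values were seen. It averaged 3.21 with Cd and 2.85 without Cd in MT KO, below the median of all values, so its signal may be background.

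Markers of other tissues and of the stage moved to different extents. Over all probe sets, 11% were lower and 11.5% higher with Cd in MT KO, and 5.5% and 6.44% in wild type. Counts near these shares are not a result about a list. Of 20 genes of germline mitosis and meiosis, 5 fell and none rose with Cd in MT KO, with a median of -0.26. In wild type 0 of them fell and 1 rose, with a median of 0.09. Of 15 oocyte and eggshell genes, none fell and 1 rose in MT KO, with a median of 0.04, while in wild type 1 fell and 6 rose, with a median of 0.39. Of 19 genes of moulting and of the cuticle made between L4 and adult, 10 fell and 3 rose in MT KO, with a median of -0.70, against 0 lower and 1 higher in wild type. The median level of the moulting and cuticle genes was 7.12 ± 0.03 in MT KO larvae with Cd, against 7.56 ± 0.50 in MT KO larvae without Cd (SD, n = 3 each). In wild type it was 8.17 ± 0.23 with Cd, against 8.04 ± 0.36 without Cd. The arrays that were high in the sperm genes within the groups without Cd, MT KO replicate 3 and wild-type replicate 1, were also the highest of their groups in these stage genes. In MT KO larvae with Cd the list median was 11.9 for 10 body wall muscle genes and 8.76 for 9 intestine genes, against 4.62 for 10 somatic gonad and vulva genes and 3.48 for 5 vitellogenin genes. With Cd in MT KO, 0 muscle genes fell and 1 rose, 4 intestine genes fell and 1 rose, and 0 of 12 neuron genes fell and 7 rose. There, 1 of 10 somatic gonad and vulva genes fell and 3 rose, and 3 of 5 vitellogenin genes fell. In wild type, 1 muscle gene fell and 0 rose, 2 intestine genes fell and 2 rose, and 0 neuron genes fell and 3 rose. Of the somatic gonad and vulva genes 0 fell and 1 rose in wild type, and 3 of 5 vitellogenin genes fell. The vitellogenin median was -1.35 in MT KO and -1.57 in wild type. The difference of the responses was called for no muscle, intestine, somatic gonad and vulva, or vitellogenin gene. It was called lower for 4 of 20 germline genes and for 2 of 15 oocyte and eggshell genes. Of the 19 moulting and cuticle genes, 4 were lower and 2 higher, and 3 of 12 neuron genes were higher. In that comparison 3.36% of all probe sets were lower and 2.09% higher. The part of the larval stage in the sperm gene differences was not tested.

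**Figure D5:**
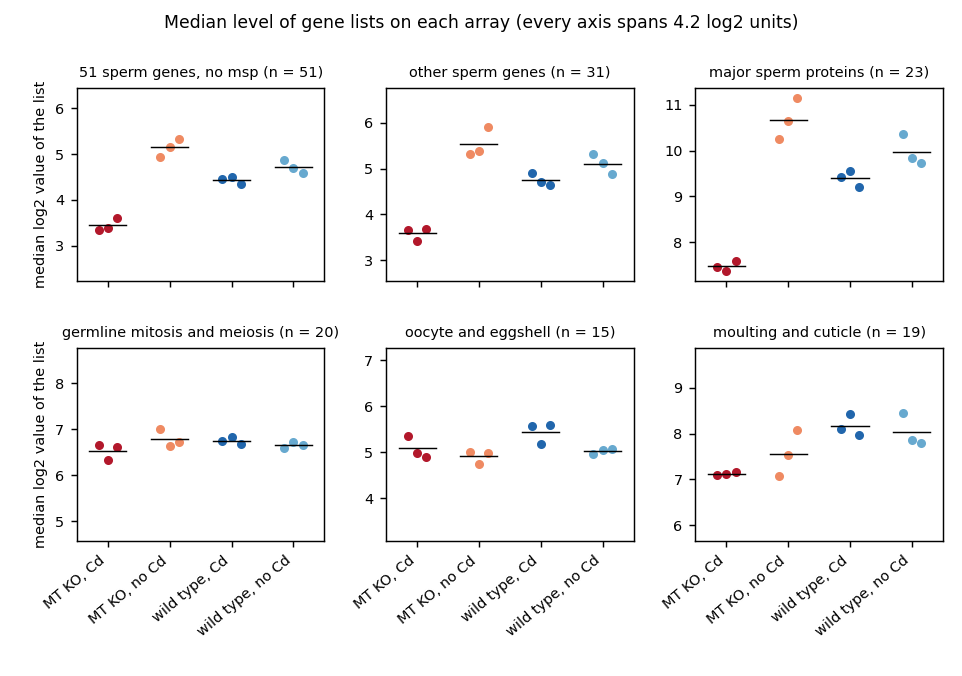
Median log2 GCRMA value of 6 gene lists on each of the 12 arrays, with 1 point per array and the 4 groups side by side. The 51 members, the major sperm proteins and the other sperm genes are lowest in MT KO larvae with Cd, and the moulting and cuticle genes are lower there than in wild-type larvae.

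The 3′ minus 5′ control signal also moved with Cd. It averaged 0.92 ± 0.17 in MT KO larvae with Cd and 1.38 ± 0.10 in MT KO larvae without Cd (SD, n = 3 each). In wild type it averaged 1.13 ± 0.10 with Cd and 1.98 ± 0.78 without Cd. With this signal as a covariate, 34 members were called lower with Cd in MT KO and 27 were lower in the difference of the responses.

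By position, the members were uneven over the chromosomes, a property the naming rule did not use. Chromosome I held 20 of the 51, which is 39.2%, against 14.5% of the 17118 genes measured. Chromosome IV held 13 (25.5%, against 15.6%), II held 9 (17.6%, against 17.7%), V held 5 (9.80%, against 25.2%) and III held 4 (7.84%, against 13.2%). No member lay on the X chromosome, which held 2360 of all genes (13.8%). The members of a family can lie side by side, as msrp-5 and msrp-6 do, so they are not independent in position. In the RefSeq annotation sss-1 was the neighbour of the major sperm protein gene msp-77 on chromosome IV.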

How the data were processed

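The authors deposited 1 log2 value per probe set and array. Per the submitters' processing notes this was done with GCRMA, version not given in the sources used here. GCRMA corrects background, normalises between arrays and combines the probes of a set, so values near the lower end are compressed and small folds there may be hidden. The log2 scale was inferred from their range, 1.56 to 14.5, and array medians lay at 3.977 to 4.067. No filter, floor or detection call was applied to the deposited values. The number of arrays limits the precision.

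Of 22625 features, 77 controls were set aside. Symbols came from the platform annotation, where 20766 probe sets had 1 symbol, 887 had several and 895 had none. The RefSeq table (WBcel235), used for names, chromosomes and neighbours, held all 51 members, and 65 of its genes meet the naming rule. Some probe sets may read several transcripts: 9 members are on probe sets that can cross-hybridise and 10 on sets shared by transcripts.

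With limma 3.58.1 (R 4.3.3), 1 mean per group was estimated from all 12 arrays together (8 residual and 1.38 prior degrees of freedom). The 5 comparisons were two-sided, with Benjamini-Hochberg adjustment over 22548 probe sets. The fit was tested on simulated data. The SE and 95% intervals are those of limma. Array values were given for gsp-3, gsp-4, spe-44, the 2 members of each family with the largest Cd difference in MT KO, the 3 with the most positive difference, and the 2 with the smallest adjusted p in each other comparison. Those of spe-39 and spe-46 were added after their values were seen. Of other lists, the 4 members with the smallest adjusted p could be named. Members and lists were chosen with earlier results of these data known.

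There were 21 alternatives: 12 leave out 1 array each, and 9 change the moderation, array weights, arrays fitted, replicate block, normalization (quantile or median centring), low-value filter, 3′ minus 5′ covariate or probe sets per gene.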

Additional observations from a re-analysis of the deposited data

Results flagged for a closer look

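The Cd response of 23 members differed between the strains in limma's test of the difference (MT KO response minus wild-type response), all with the more negative response in MT KO. Each value here is that difference in log2 units, with n = 3 arrays in each of the 4 groups. Among the peptide families it was -3.32 for nsph-3.2, -2.91 for nspd-2, -2.76 for nspd-1, -2.50 for msrp-6, -2.42 for nsph-3.1, -2.32 for sss-2, -2.31 for msrp-5 and -1.84 for sss-1. Among the genes of known sperm function it was -2.52 for spe-11, -2.49 for gsp-4, -2.44 for gsp-3, -2.26 for spe-18 and -0.94 for spe-44. It was -1.49 for spe-55, whose other probe set gave -0.60 and was not called (limma adjusted p = 0.338). The MT KO mean with Cd lay below the median of all values for spe-11, spe-55, sss-1, nsph-3.2, msrp-5 and msrp-6, so the sizes of these differences depend on the background of the array.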

How the results depend on the processing

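No difference of the 17 members followed under the alternatives changed sign past the threshold where it could be fitted. Of 21 alternatives, the low-value filter gave no value for members below it and the fit of only 2 groups none for the difference of the responses. Calls kept under every alternative that gave a value were 32 of 36 with Cd in MT KO, 20 of 23 for the difference of the responses, 15 of 24 between the strains with Cd, and 0 of 2 and 0 of 5 for Cd in wild type and the strains without Cd. With Cd in wild type, the count of 2 became 0 with the 3′ minus 5′ covariate and 4 with the filter on low values. Between the strains without Cd, the count of 5 became 9 with that covariate, 17 with array weights, 12 with the filter, 8 with an intensity trend and robust moderation, and 0 with only the 2 groups fitted, where 25 members had an unadjusted limma p under 0.05. The filter leaves 29 members, and with it the medians became -2.44 for Cd in MT KO, -1.32 and 0.70 between the strains with and without Cd, -2.26 for the difference of the responses and -0.30 for Cd in wild type. It keeps members by their mean over all 12 arrays, groups where they are high included, so these medians also reflect which members stay. The covariate gave 0.56 between the strains without Cd. Leaving out 1 array gave 33 to 36 members with Cd in MT KO (medians -1.29 to -1.05), 1 to 4 in wild type (-0.22 to -0.11), 17 to 25 between the strains with Cd (-0.59 to -0.43), 2 to 7 without Cd (0.30 to 0.51) and 20 to 26 for the difference of the responses (-1.03 to -0.79). Same-numbered arrays of different groups deviated with correlations from -0.20 to 0.24, and differently numbered arrays from -0.33 to 0.25. Between the MT KO groups, the same-numbered correlations were 0.16, 0.06 and 0.24, and the others ran from -0.25 to 0.12. Whether the numbers pair the samples is not settled by these values. With the replicate number as a block, the counts were 35, 3, 21, 4 and 22 for Cd in MT KO, Cd in wild type, the strains with and without Cd, and the difference of the responses. A signal near the array's background limits 18 members, which lay below the median of all values in every group.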

Other observations

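A further 6 probe sets carried several gene symbols, at least 1 of them a gene of the naming rule, and stood for no member. All 6 fell with Cd in MT KO, and the largest of them fell by 4.06 log2 units, with limma adjusted p of at most 0.00108.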
